A study of Arabidopsis thaliana with 6 samples.

Results

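Fragments of chloroplast and mitochondrial ribosomal RNA (rRNA) made up 1020 of the 18124 small RNA sequences listed for Arabidopsis thaliana leaves. A sequence was included when it matched, without mismatch, an annotated rRNA gene of the chloroplast genome (4.5S, 5S, 16S or 23S) or of the mitochondrial genome (5S, 18S or 26S) and did not match the nuclear rRNA unit of chromosome 2. Of the 1020, 993 matched a chloroplast gene and 44 a mitochondrial gene, and 17 matched a gene of each organelle. All matched the sense strand and 0 were antisense. Antisense sequences were rare for the nuclear unit too, at 45 listed beside 12880 sense ones. A further 3 sequences of 17 or 18 nt lay in an organellar rRNA gene but also in the nuclear unit and were left out.

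The libraries came from leaves of wild-type (WT) plants and of the rdr1 mutant, with 3 of each and no treatment, grown under 16 h of daylight at 22 °C. The rdr1 allele is not named in the labels. The RDR1 gene (AT1G14790) matched 0 listed sequences, so the genotype could not be checked from small RNAs of that gene. The leaf tissue was not checked. Values are read counts scaled to a library total of 8000000, and 1 read was worth between 0.804 and 1.71. The organellar rRNA sequences held between 69788 and 154967 reads and between 4.10% and 6.99% of the listed value of a library.

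Chloroplasts and mitochondria keep ribosomes of bacterial type, whose rRNAs are encoded in the organelle's own genome. In chloroplasts of flowering plants the 3′ part of the bacterial-type large rRNA is a separate molecule, the 4.5S rRNA, and the remaining 23S rRNA is further cut at internal sites known as hidden breaks. The 3′ end of the 16S rRNA carries the CCTCC sequence that pairs with the Shine-Dalgarno sequence of mRNAs. RDR1 is an RNA-dependent RNA polymerase that copies RNA into double strands from which small interfering RNAs are cut, so it is a question of the design whether any class of leaf small RNA depends on it.

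Most of the value lay in families of fragments that share 1 end and differ in length. The following sequences are shown because they lie at the shared ends on which most of the results turn. All are among the most abundant of their gene, except the 17-nt fragments of the 3′ ends of 23S and 16S, which are the shortest of their families. They are written as DNA, 5′ to 3′, with capitals for the 17 bases next to the end that the family shares, and coordinates are of TAIR10.1, where Pltd is the chloroplast and MT the mitochondrial genome. The chloroplast 16S, 23S and 4.5S genes lie in both copies of the inverted repeat, so that each fragment matches both, and coordinates of the plus-strand copy are given. For 5S the annotated minus-strand copy is used.
4.5S nt 77 to 103, Pltd:107675-107701, plus strand: catcctaacaGACCGGTAGACTTGAAC
4.5S nt 84 to 103, Pltd:107682-107701, plus strand: acaGACCGGTAGACTTGAAC
23S nt 2 to 19, Pltd:104692-104709, plus strand: TCAAACGAGGAAAGGCTt
23S nt 2 to 28, Pltd:104692-104718, plus strand: TCAAACGAGGAAAGGCTtacggtggat
23S nt 2794 to 2810, Pltd:107484-107500, plus strand: AAGATGAGTGCTCTCCT
16S nt 1 to 29, Pltd:101012-101040, plus strand: TCTCATGGAGAGTTCGAtcctggctcagg
16S nt 1473 to 1489, Pltd:102484-102500, plus strand: CGGCTGGATCACCTCCT
5S nt 103 to 121, Pltd:130580-130598, minus strand: aaTAGCTCGACGCCAGGAT
Mitochondrial 18S nt 1907 to 1935, MT:126289-126317, minus strand: gtaggggaacctGTGGCTGGATTGAATCC
Mitochondrial 5S nt 100 to 118, MT:126001-126019, minus strand: caTGGTCCAAGCCCGGTGA

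Chloroplast rRNA gave nearly all of the organellar fragments. The chloroplast sum was 101030, 136683 and 87944 in the WT libraries (replicates 1, 2 and 3, in this order throughout) and 165748, 118864 and 94425 in those of rdr1. The mitochondrial sum was 679, 1235 and 569 in WT and 1473, 728 and 793 in rdr1. Within each genotype the libraries spread by more than the genotypes differed, and the groups overlapped for both organelles. The mean chloroplast sum was 108552 ± 25225 in WT and 126346 ± 36245 in rdr1 (SD, n = 3 per genotype; log2 ratio 0.22, exact two-sided permutation test, p = 0.6). The mean mitochondrial sum was 827 ± 357 in WT and 998 ± 412 in rdr1 (log2 ratio 0.27, exact permutation p = 0.5). In bulk libraries the number of organelles in a leaf and the amount of rRNA per organelle cannot be told apart. With 3 against 3 libraries the exact test cannot give a p below 0.1. No source says that the libraries came from separate plants. A permutation p therefore ranks the difference among relabellings of these libraries and does not speak for plants.

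Per length, the 4.5S rRNA was the leading source. Averaged over the 6 libraries, 100 nt of gene gave 39555 for 4.5S, 7522 for 5S, 1813 for 16S and 1444 for 23S in the chloroplast. The ranges over libraries were 30591 to 54433 for 4.5S and 5684 to 10051 for 5S, which did not overlap. For 16S (1227 to 2832) and 23S (1028 to 2187) they did overlap. In mitochondria the values per 100 nt were 34.7 for 18S, 6.62 for 26S and 26.1 for 5S, and the range for 5S (4.93 to 71.2) enclosed that of 18S (21.8 to 52.2). Listed fragments covered 100% of the positions of 4.5S, 77.7% of 5S, 63.2% of 16S and 51.8% of 23S, against 8.84% of mitochondrial 18S, 16.1% of 5S and 2.05% of 26S. Each listed sequence reached at least 20.07 in 1 library or more, although the filter is not stated. An uncovered position therefore holds no listed fragment rather than no fragment.

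**Figure D1:**
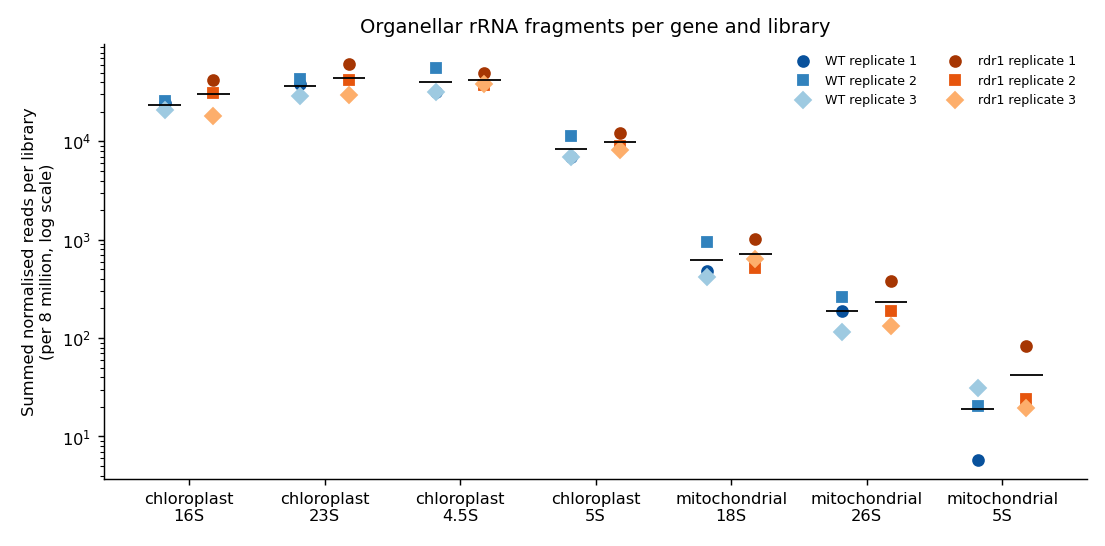
Summed normalised reads per library (vertical log axis, scaled to a total of 8000000) of the fragments of each organellar rRNA gene, with WT in blues, rdr1 in oranges and a bar at each mean of 3 libraries. The mitochondrial sums lie far below the chloroplast sums, and the WT and rdr1 libraries overlap at all 7 genes.

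No organellar rRNA gene differed between rdr1 and WT beyond the spread of the libraries. The sums in WT and rdr1 were 23607 ± 2648 and 30447 ± 11971 for 16S, the rRNA of the small chloroplast subunit. They were 36788 ± 7356 and 44369 ± 15943 for 23S, the large rRNA of the large subunit. For 4.5S they were 39751 ± 14130 and 41732 ± 7090, and for 5S, a small rRNA of the large subunit, 8406 ± 2562 and 9798 ± 2093 (SD, n = 3 per genotype). The mitochondrial 18S, 26S and 5S sums were 621 ± 291, 187 ± 72.0 and 19.2 ± 12.8 in WT and 723 ± 257, 233 ± 129 and 42.5 ± 36.1 in rdr1. The groups overlapped for all 7 genes, with exact permutation p from 0.5 to 0.8 and Benjamini-Hochberg adjusted p from 0.667 to 0.8 over 10 sums. In the limma fit over 1290 annotated loci, 5 loci passed at an adjusted p under 0.05 (0.388%), and 0 of the 7 organellar rRNA genes were among them, with log2 fold changes from 0.11 (4.5S) to 1.06 (mitochondrial 5S) and adjusted p from 0.647 to 0.863. For mitochondrial 5S the library with the fewest fragments held 4 reads, so its fold change rests on few counts. Leaving out rdr1 replicate 1 brought the log2 ratio of the sums from 1.14 to 0.18 for mitochondrial 5S and from 0.37 to 0.057 for 16S, and over all libraries left out in turn it reached up to 1.69 and 0.63. All of the deposited sums but that of mitochondrial 5S turned lower in rdr1 when median of ratios scaling, which takes the middle of all sequences as unchanged, replaced the authors' scaling, with a log2 ratio of -0.33 for the chloroplast and -0.24 for the mitochondria. By its construction the same scaling moved the median over all sequences tested from a log2 fold change of 0.47 to 0.01.

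Relative to the sense fragments of nuclear rRNA in the same library, chloroplast rRNA was somewhat higher in rdr1. The log2 ratio of chloroplast to nuclear rRNA was -3.16, -2.93 and -2.95 in WT and -2.76, -2.82 and -2.80 in rdr1. The lowest rdr1 library lay above the highest WT library, and the means differed by 0.22 (-3.01 ± 0.13 in WT and -2.80 ± 0.03 in rdr1, SD, n = 3 per genotype). The exact permutation p was 0.1, the smallest that the design allows, and 0.3 after adjustment over 3 ratios, so the difference did not pass. It was between 0.14 and 0.26 when each library was left out in turn. The scaling of a library cancels in this ratio, but its fragment length does not, and the part of fragment length in it was not tested. The ratio of mitochondrial to nuclear rRNA (0.29 higher in rdr1, exact permutation p = 0.2) and that of mitochondrial to chloroplast rRNA (0.07 higher, exact permutation p = 1) both overlapped between genotypes.

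The chloroplast fragments were concentrated at the ends of the mature rRNAs. Of the 993 chloroplast sequences, 105 (10.6%) had their start or end exactly at 1 of 8 positions: the first base of 16S and of 5S, the second of 23S, the last of 23S, 4.5S and 5S, and the pair just before the end of 16S. These 105, which were picked with their values in view, held between 67.4% and 77.3% of the chloroplast sum in the 6 libraries. The remaining 888 sequences were spread along the genes in islands separated by uncovered stretches.

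**Figure D2:**
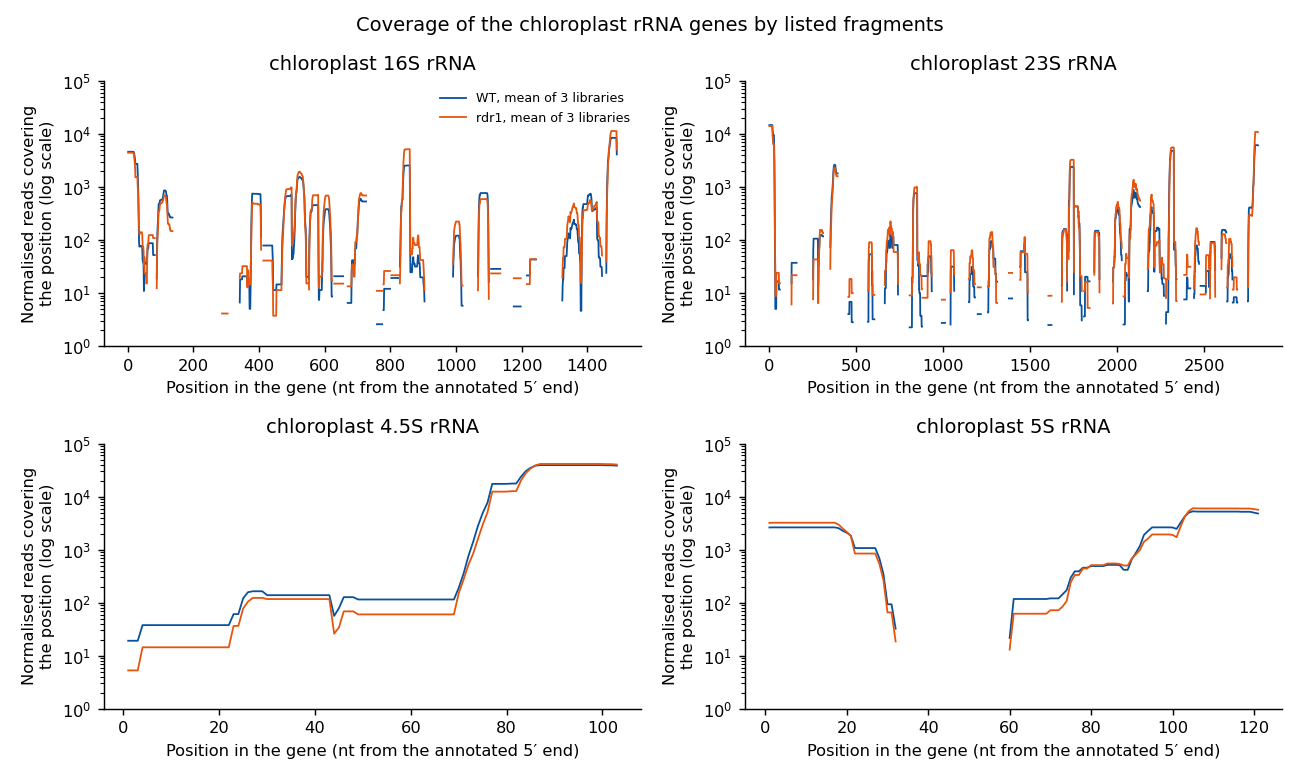
Mean normalised reads covering each position of the 4 chloroplast rRNA genes (vertical log axis) against the position from the annotated 5′ end, for WT (blue) and rdr1 (orange), each a mean of 3 libraries; gaps hold no listed fragment. Coverage peaks at the ends of 16S, 23S and 5S and at the 3′ end of 4.5S, where it is highest; the internal peak near nt 859 of 16S is higher in rdr1 than in WT, which comes mainly from 1 rdr1 library.

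The 4.5S rRNA was represented almost wholly by its 3′ end. Fragments ending within 2 nt of the annotated 3′ end held between 98.3% and 99.0% of its value, and fragments starting within 2 nt of the annotated 5′ end held between 0.003% and 0.106%. The 13 sequences that end exactly at nt 103, of 17 to 34 nt, summed to 30831, 54387 and 30394 in WT and 47977, 36122 and 37060 in rdr1, and the groups overlapped. They were between 45.4 and 83.1 times as abundant as those ending 1 nt earlier, at nt 102. The 27-nt member, nt 77 to 103, was the most abundant organellar rRNA sequence, at 12788, 10021 and 6623 in WT and 4311, 7830 and 10156 in rdr1. The 20-nt member, nt 84 to 103, was at 2802, 9661 and 6485 in WT and 9457, 6630 and 6263 in rdr1. The long form was highest and the short form lowest in WT replicate 1, and the long form was lowest in rdr1 replicate 1, so the libraries order the 2 forms differently.

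The 23S rRNA gave fragments from both ends, with more from the 5′ end in each library. Fragments within 2 nt of the 5′ end held between 27.5% and 42.8% of its value. In rdr1 replicate 1 the lead was narrow, at 27.5% against 26.8% for the 3′ end. There the 5′ share counts the 17-nt and 18-nt sequences, at 882 and 8482, which each match 3 places in the genome. Those starting at nt 2 summed to 14810, 18520 and 10851 in WT and 16819, 13694 and 11899 in rdr1, and no listed fragment started at nt 1. Within this family the 18-nt sequence, nt 2 to 19, stood above the 17-nt and 19-nt ones in 6 of 6 libraries, at 1175, 5475 and 2715 in WT and 8482, 3047 and 2346 in rdr1. The 19-nt sequence was at 108, 321 and 301 in WT and 679, 331 and 195 in rdr1. The 18-nt sequence matches 3 places in the genome, 1 of them outside the inverted repeat, whereas the 27-nt sequence, nt 2 to 28, matches both repeat copies alone and was at 3613, 2644 and 2440 in WT and 1676, 3158 and 2706 in rdr1.

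The 3′ end of 23S took a larger share of the gene's fragments in the rdr1 libraries. Fragments ending within 2 nt of nt 2810 held 12.8%, 18.6% and 19.2% of the 23S value in WT and 26.8%, 24.7% and 20.8% in rdr1. The groups did not overlap and differed by 7.25 percentage points, with an exact permutation p of 0.1, the smallest possible, and 0.36 after adjustment over 9 shares at the ends of genes. The difference ranged from 5.22 to 8.90 points when each library was left out in turn, and it did not pass the test. In level, the fragments ending at nt 2810 were at 6129 ± 1666 in WT and 10908 ± 5066 in rdr1 (SD, n = 3 per genotype), and here the groups overlapped. The share was lowest in WT replicate 1 and highest in rdr1 replicate 1, the libraries with the longest and the shortest fragments. Lengths of 22 to 26 nt were listed at nt 2810 but not at nt 2, where the 5′ fragments start. The part of fragment length and of unlisted lengths in the difference was not tested. No other share at an end of a gene separated the genotypes.

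The ends of 23S and 4.5S that supplied these families face each other in the ribosome of bacterial type, where the 5′ end of the large rRNA pairs with its 3′ end. The first 15 bases of 23S and the last 15 bases of 4.5S, shown with capitals for their longest complementary run, share a run of 5 bases, nt 1 to 5 of 23S with nt 98 to 102 of 4.5S.
23S, first bases: TTCAAacgaggaaag
4.5S, last bases: ccggtagacTTGAAc
The run is a match of letters and says nothing of the structure of the fragments. In the genome, a spacer of 98 nt separates the annotated 23S gene from the 4.5S gene.

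The 16S rRNA gave fragments from both ends, and its 3′ fragments stopped short of the annotated end. Fragments within 2 nt of the 3′ end held between 32.6% and 43.0% of the 16S value, and those within 2 nt of the 5′ end between 12.2% and 23.3%. The sequences starting at nt 1 averaged 4539 over the 6 libraries. Their 29-nt member was at 1305, 1067 and 378 in WT and 267, 697 and 706 in rdr1, and their 22-nt member at 389.9, 609.6 and 808 in WT and 1025, 949 and 590.1 in rdr1. Both overlapped between genotypes. No listed fragment ended at the annotated last base, nt 1491. Those ending at nt 1489 were at 4329 ± 599 in WT and 6300 ± 2544 in rdr1, and those ending at nt 1490 at 4127 ± 239 and 5089 ± 1495 (SD, n = 3 per genotype). The ratio of the former to the latter stayed between 0.933 and 1.32 in the 6 libraries. The anti-Shine-Dalgarno letters CCTCC were present on the sense strand of 32 of the 424 16S fragments (7.55%), against 1.06% of all listed sequences (3.95% with the motif on either strand). These 32 all lay between nt 1458 and 1490, at the 3′ end of the gene. Their share of the 16S value, between 32.6% and 43.0%, therefore largely restates that of the 3′ end. The 7.55% likewise reflects how many fragments were listed there, and neither is a separate result about the motif.

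The 5S rRNA fragments showed that the annotated 3′ end is 1 base short of the most abundant end. Fragments ending at the annotated last base, nt 121, summed to 3599, 7125 and 3746 in WT and 7361, 5016 and 4642 in rdr1. Sequences that run 1 base past it, to nt 122, match the genome exactly but are not within the annotated gene, and so are not among the 1020. The leading fragments within the gene were the 19-nt one, nt 103 to 121, at 436, 1547 and 1053 in WT and 2018, 1256 and 1070 in rdr1, and the 20-nt one, nt 102 to 121, at 479, 1197 and 850.2 in WT and 1315, 965 and 1019 in rdr1. The sequences ending at nt 122 summed to 8290, 16013 and 9185 in WT and 15908, 11202 and 10586 in rdr1, a value between 2.16 and 2.45 times the value at nt 121 in the 6 libraries. Its highest library was 1.13 times its lowest, so this ratio differed little between libraries that differ widely in fragment length. The most abundant of them, with capitals for its last 17 bases, was at 1129, 2944 and 2055 in WT and 3418, 2392 and 2244 in rdr1.
5S nt 103 to 122, Pltd:130579-130598, minus strand: aatAGCTCGACGCCAGGATG
In all, 34 listed sequences ran past an annotated end, of which 30 were of 5S, 2 of 4.5S and 2 of 16S, so the 5S sum given above leaves out more value than it holds. At the 5′ end of 5S, fragments starting at nt 1 held between 28.6% and 36.2% of the value within the gene.

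Away from the mature ends, a few internal positions of chloroplast rRNA carried families of fragments with a common 3′ end. The 3 largest are shown with 20 bases up to the end in capitals and the 15 bases that follow in lower case, and they were picked with their values in view.
23S, end at nt 2326, Pltd:106997-107031, plus strand: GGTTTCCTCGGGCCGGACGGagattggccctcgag
16S, end at nt 859, Pltd:101851-101885, plus strand: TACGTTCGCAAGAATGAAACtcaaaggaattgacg
23S, end at nt 1751, Pltd:106422-106456, plus strand: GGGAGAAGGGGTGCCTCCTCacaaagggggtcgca
The end at nt 2326 of 23S, 484 nt before the annotated end, was shared by 15 sequences at 4764 ± 1303 in WT and 5499 ± 2619 in rdr1 (SD, n = 3 per genotype). No listed fragment started in the 5 bases that follow, and 4 sequences with a mean sum of 79.0 read through the site by at least 4 bases on each side. The end at nt 1751, 1059 nt before the annotated end, was shared by 12 sequences at 2280 ± 106 in WT and 3020 ± 995 in rdr1. No sequence read through it by at least 4 bases on each side, and no listed fragment started in the 5 bases that follow. Fragments starting within 8 bases after it averaged 433, against 0 after nt 2326. The end at nt 394 of 23S, shared by 16 sequences, was at 1805 ± 671 in WT and 1600 ± 726 in rdr1. The chloroplast hidden breaks lie inside 23S, but whether these ends are breaks of the mature rRNA was not tested, and the internal positions are given as coordinates only.

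The end at nt 859 of 16S was highest in 1 rdr1 library. It was shared by 13 sequences, at 2279 ± 283 in WT and 4537 ± 3362 in rdr1 (SD, n = 3 per genotype), and the groups overlapped. Its 20-nt member, nt 840 to 859, was at 365, 469 and 392 in WT and 1645, 658 and 471 in rdr1. These values did not overlap between genotypes, but the lowest rdr1 library and the highest WT library were nearly equal, and the sequence did not pass in limma (log2 fold change 0.97, SE 0.61, adjusted p = 0.753).

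Mitochondrial fragments were few, and those of 5S all lay at an end of the gene, whereas those of 26S lay at neither. The 3 sequences of 5S, a small rRNA of the large subunit, ended at the annotated last base, nt 118. For 18S, the small-subunit rRNA, fragments within 2 nt of the 3′ end held between 26.6% and 50.0% of the value, and the groups overlapped (exact permutation p = 0.2, adjusted p = 0.36). Its most abundant fragment, the 29-nt sequence from nt 1907 to 1935, was at 199, 222 and 56.2 in WT and 17.6, 30.8 and 169.7 in rdr1. Other 18S fragments ended together inside the gene at nt 162, at 159 ± 120 in WT and 209 ± 14.0 in rdr1, and at nt 1680, at 141 ± 48.95 and 160 ± 81.3 (SD, n = 3 per genotype). Of the 32 sequences of 18S, 15 also match chloroplast 16S, and of the 9 of 26S, 2 also match chloroplast 23S. Their values were divided equally between the genes, and for these shared sequences the organelle of origin cannot be told apart. The leading 26S fragment was the 19-nt sequence from nt 16 to 34, at 16.0, 83.7 and 32.1 in WT and 65.2, 42.8 and 42.4 in rdr1. The next was the 24-nt sequence from nt 411 to 434, at 46.4 ± 21.9 in WT and 34.1 ± 10.1 in rdr1 (SD, n = 3 per genotype). At this level a library holds few reads of a sequence, and the groups overlapped for both.

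Fragment length differed more between libraries than between genotypes, at the chloroplast ends as elsewhere. Fragments of 17 to 19 nt held 8.02%, 29.0% and 24.5% of the chloroplast value in WT and 44.8%, 22.6% and 21.01% in rdr1. Fragments of 28 to 34 nt held 40.1%, 26.5% and 15.4% in WT and 6.502%, 20.3% and 23.5% in rdr1. WT replicate 1 had the longest and rdr1 replicate 1 the shortest fragments, and the other 4 libraries lay between them. All listed sequences showed the same order, with the share of 28 to 34 nt lowest in rdr1 replicate 1 (4.87%) and highest in WT replicate 1 (35.3%). None of the 10 shares tested, 5 length classes in each organelle, separated the genotypes (exact permutation p from 0.3 to 0.6, adjusted p = 0.6).

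The same shift recurred at each shared end. At the 3′ end of 4.5S the ratio of 17 to 21 nt to 27 to 34 nt was 0.396, 1.73 and 2.04 in WT and 5.73, 1.65 and 1.28 in rdr1. At nt 2 of 23S it was 0.194, 0.734 and 0.954 in WT and 3.67, 0.713 and 0.572 in rdr1. At the 3′ end of 23S it was 0.801, 2.95 and 5.06 in WT and 12.2, 2.74 and 2.15 in rdr1. WT replicate 1 was lowest and rdr1 replicate 1 highest at all of the 8 ends for which the ratio was computed, internal ends included, and the highest library had between 11.3 and 21.8 times the ratio of the lowest.

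**Figure D3:**
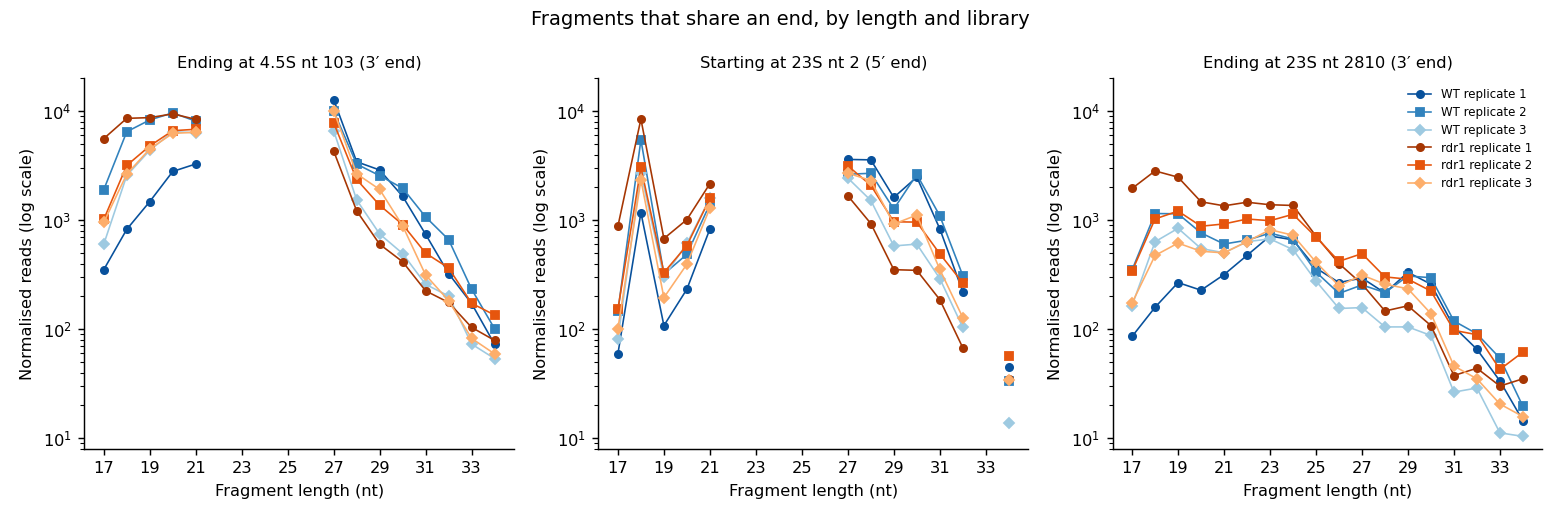
Normalised reads (vertical log axis) of fragments that share an end, against fragment length in nt, with 1 line per library (WT blues, rdr1 oranges), for the 3′ end of 4.5S, nt 2 of 23S and the 3′ end of 23S. At all 3 ends rdr1 replicate 1 leads at 17 nt and WT replicate 1 is lowest there; no fragment of 22 to 26 nt was listed at the first and second ends.

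Some lengths were missing from the list at abundant ends. At the 3′ end of 4.5S no sequence of 22 to 26 nt was listed, although the 21-nt and 27-nt sequences on either side averaged 6573 and 8622. No sequence of 22 to 26 nt was listed at nt 2 of 23S, nt 1 of 5S or nt 122 of 5S either, nor any of 23 to 28 nt at nt 1 of 16S. Of 37 ends whose fragments averaged at least 1000 in sum, 9 lacked 38 lengths in total that lay between listed lengths averaging at least 200. At the 3′ end of 23S, by contrast, all lengths from 17 to 34 nt were listed. The cause was not tested, and the sums and length shares of these ends leave out whatever fragments of the missing lengths the libraries held.

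Compared with sense fragments of nuclear rRNA in the same libraries, chloroplast rRNA fragments held more at 27 nt. The share at 27 nt was 13.9 ± 5.62% for chloroplast and 7.996 ± 3.24% for nuclear rRNA (SD over 6 libraries), and it was higher for the chloroplast in 6 of 6 libraries. An exact two-sided sign-flip permutation test over the 6 libraries gave p = 0.0312, the smallest it can give, and 0.0625 after adjustment over 6 length classes, so the difference did not pass. Without 4.5S, whose 27-nt fragment is the most abundant, the chloroplast share was 9.21 ± 3.32% and still higher in 6 of 6 libraries. The shares of 20 to 22 nt (27.5% against 24.3%) and of 25 to 27 nt (18.8% against 16.5%) were higher for the chloroplast in 6 of 6 libraries as well, with the same p. The class of 27 nt lies within that of 25 to 27 nt, so these are not separate results. This comparison, with its class of 27 nt, was added after the values were seen, so its p values describe a pattern already in view. The share of 28 to 34 nt was 22.0% against 25.6% and lower in 5 of 6 libraries (exact permutation p = 0.0625, adjusted p = 0.0938). The missing lengths described above enter these shares, and their part was not tested.

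**Figure D4:**
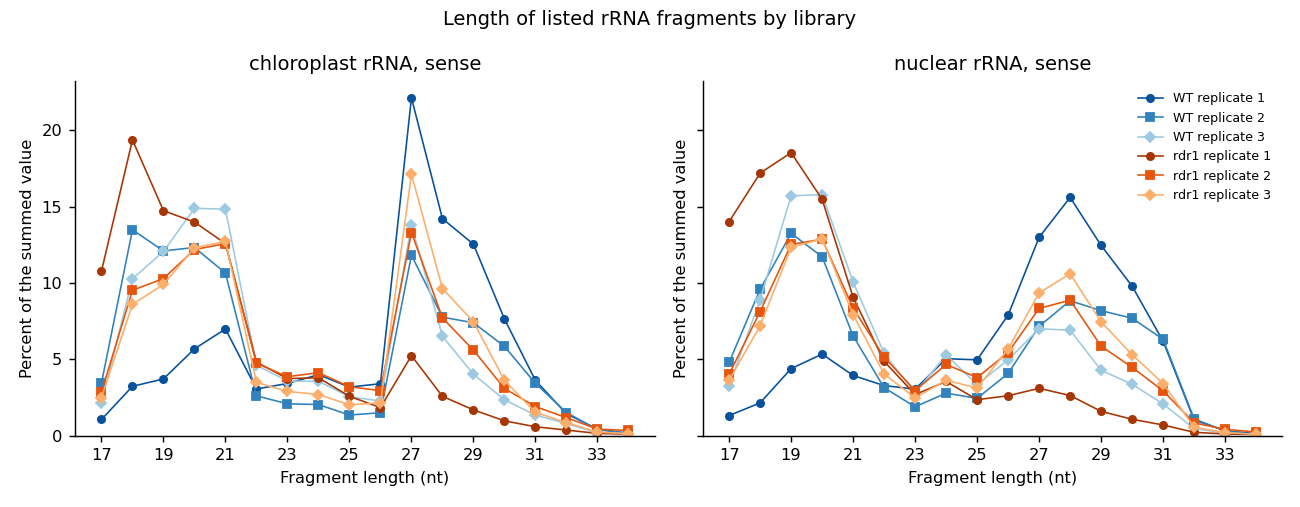
Percent of the summed value at each fragment length (nt) for chloroplast rRNA (left) and sense nuclear rRNA (right), with 1 line per library (WT blues, rdr1 oranges). The chloroplast profile has a peak at 27 nt, lowest in rdr1 replicate 1 (5.25%) and highest in WT replicate 1 (22.1%), and the nuclear profile is smoother there.

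No single organellar rRNA sequence passed in the comparison of rdr1 with WT. In the limma fit over 18043 sequences with a mean of at least 5, 39 passed at an adjusted p under 0.05 (0.216%), and 0 of the 1010 organellar rRNA sequences tested were among them. At an unadjusted p under 0.05 there were 9 of the 1010 (0.891%), 8 of them higher in rdr1, against 2.45% of all tested. EdgeR and DESeq2 on the reads recovered from the values also called 0 of these, against 0.432% and 0.787% of all tested. At an unadjusted p under 0.05 edgeR had 24 of the 1010 (2.38%, against 4.32% of all tested) and DESeq2 had 44 (4.36%, against 6.97%). Groups did not overlap for 36 sequences that were higher in rdr1 (3.56%, against 2.98% of all tested) and for 4 that were lower (0.396%, against 2.31%). The tested sequences are 1010 of the 1020, and 855 of the 1020 were above 0 in all 6 libraries.

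The direction of a sequence followed its length. Its median log2 fold change was 0.9999 for the 397 sequences of 17 to 19 nt, 0.70 for the 213 of 20 to 22 nt, -0.23 for the 94 of 25 to 27 nt and -0.68 for the 241 of 28 to 34 nt. All tested sequences of these lengths had medians of 0.87, 0.55, -0.43 and -0.89. A log2 fold change above 0 was found in 390 of the 397 shortest and in 13 of the 241 longest. Without rdr1 replicate 1 the median of 17 to 19 nt dropped to 0.37, and without WT replicate 1 to 0.40. For 28 to 34 nt the median was -0.30 without rdr1 replicate 1 and -0.29 without WT replicate 1, and for 25 to 27 nt it turned to 0.18 without WT replicate 1. The 65 sequences of 23 to 24 nt had a median of 0.51, whereas the median over all tested sequences of that length was -0.35. The value for 23 to 24 nt was 0.20 without rdr1 replicate 1 and 0.06 with median of ratios scaling. Over all lengths the median was 0.60, against 0.47 for all tested, with 701 of 1010 (69.4%) above 0 against 65.8% of all tested.

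**Figure D5:**
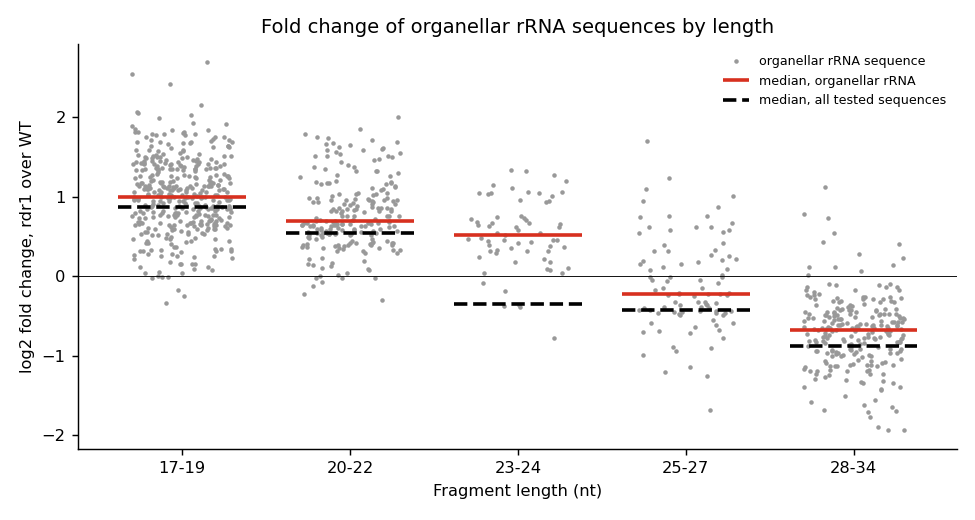
Log2 fold change of rdr1 over WT from limma (vertical axis) for each organellar rRNA sequence tested (grey points, spread sideways for visibility), by fragment length in nt, with the median of these sequences (red) and of all tested sequences of that length (black, dashed). The red medians run from 0.9999 at 17 to 19 nt to -0.68 at 28 to 34 nt and follow the dashed ones except at 23 to 24 nt.

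The sequences with the smallest p were 4 fragments of 17 nt from chloroplast rRNA and a long mitochondrial fragment. The 17-nt fragment of the 3′ end of 23S, nt 2794 to 2810, was at 85.8, 349.8 and 165 in WT and 1957, 341 and 174 in rdr1 (limma log2 fold change 1.51, SE 0.61, unadjusted p = 0.0137, adjusted p = 0.753). Only rdr1 replicate 1 stood apart, and its other libraries lay within the WT range. The 17-nt fragments of 23S from nt 2 to 18, of 16S from nt 844 to 860 and of 16S from nt 1473 to 1489 were likewise highest in rdr1 replicate 1, at 882, 118 and 609.6 in rdr1 replicate 1 against at most 153, 17.1 and 123 in the other libraries. In each of the 3, rdr1 replicate 2 lay above the WT range and rdr1 replicate 3 within it. For 16S nt 844 to 860 this rests on few reads, with 10 in rdr1 replicate 2 and 10 in WT replicate 2. The mitochondrial 18S fragment from nt 1907 to 1935 was lower in rdr1 (log2 fold change -1.56, SE 0.69, limma adjusted p = 0.753), but rdr1 replicate 3, at 169.7, lay among the WT libraries.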

How the data were processed

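Small RNA libraries of leaves were made with HD adapters from TRIzol RNA and read as 50-nt single ends, per the labels' protocols. TAIR 10 was the genome build, per the submitters' processing notes. The aligner is not given in the sources used here, nor are trimming, filters or the normalisation. Each library has a column of normalised signal deposited by the authors, per the file headers, with a value for each distinct sequence. All values (100%) were whole multiples, within 0.01 of a read, of a step fixed within a library. A scaling to 8000000 then gives library totals between 4668411 and 9955668 reads. What these totals count is not stated, and the listed sequences held 23.8% to 30.9% of them. Reads are not unique molecules.

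Sequences were matched without mismatch to the RefSeq genome TAIR10.1. Of the members, 82 also match the nuclear genome elsewhere. Because the unit is not a raw count, the main test was two-sided limma, with trended empirical Bayes, on log2(value + 1), for sequences and for loci with a mean of at least 5, with Benjamini-Hochberg adjustment over all tested. Sums, ratios and shares per library were compared with exact permutation tests. Alternatives were other pseudocounts, filters and scalings, edgeR with TMM and DESeq2 on recovered reads, a replicate block, each library left out, and other tolerances at gene ends. The limma fit was tested on simulated data. The text names, per gene, the 2 sequences with the highest mean and the largest ends, and the 5 members with the smallest p. Members and lists were chosen with earlier results of these data known, and the internal ends, the motif, the missing lengths and the comparison with nuclear lengths were added after the values were seen. Fits used limma 3.58.1, edgeR 4.0.16 and DESeq2 1.42.0 in R 4.3.3. Other steps used scipy 1.17.1, pandas 2.3.3, numpy 2.4.6 and matplotlib 3.10.9 in Python 3.11.15.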

Additional observations from a re-analysis of the deposited data

How the results depend on the processing

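No organellar rRNA sequence or gene was called by limma, edgeR or DESeq2 under any setting that was run. Over all sequences the 39 calls became 24 with a pseudocount of 20, 15 with a mean of at least 20, 78 with edgeR, 142 with DESeq2 and between 8 and 56 with a library left out. Over all loci the 5 calls became 20 with no filter, 3 with a mean of at least 20 and between 3 and 10 with a library left out. Nothing in the labels says that the replicate numbers pair the libraries. Deviations from the genotype mean had correlations of -0.711, -0.3005 and -0.526 between same-numbered libraries. Between libraries of unlike number they ranged from -0.281 to 0.609. Deviations within a genotype sum to 0, so these values cannot decide whether libraries shared a batch. With the number as a block 7 sequences were called.

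Median of ratios scaling turned the log2 ratios of the sums from higher to lower in rdr1, at -0.33 for all members, -0.33 for the chloroplast, -0.24 for the mitochondria, -0.28 for 16S, -0.35 for 23S, -0.37 for 4.5S, -0.26 for 5S, -0.25 for mitochondrial 18S and -0.33 for mitochondrial 26S. With a library left out the log2 ratio ranged from -0.026 to 0.42 for all members, -0.026 to 0.42 for the chloroplast, -0.12 to 0.68 for the mitochondria, -0.038 to 0.49 for 23S, -0.078 to 0.40 for 4.5S, -0.10 to 0.67 for mitochondrial 18S, -0.22 to 0.62 for mitochondrial 26S and -0.030 to 0.24 for the mitochondrial to chloroplast ratio. The values below 0 came without rdr1 replicate 1, for 4.5S also without WT replicate 1 or 3, and for the last ratio also without WT replicate 3. In percentage points of rdr1 minus WT, the chloroplast share ranged from -0.146 to 9.16 at 20 to 22 nt, -0.236 to 1.54 at 23 to 24 nt and -6.85 to 0.165 at 25 to 27 nt. The 3′ share ranged from -0.968 to 4.96 for 16S and -1.74 to 2.94 for 5S, and the 5′ share of 5S from -0.765 to 3.02. Counting only fragments exactly at the end made the 4.5S 3′ difference -0.088, and counting those within 5 nt made the 5S 3′ difference -0.246. None of these differences had passed a test. No listed sequence stayed below 20.07 in all libraries. Unlisted sequences and the missing lengths limit all sums.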
